A study of Mus musculus with 42 samples.

Results

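Loss of Tsc2 in the kidney tubule was compared with control kidneys in mice that had received no treatment. The comparison was taken from the deposited tables of the untreated KspCre cohort by their column names and rested on 6 of the 42 samples of the series, 3 control and 3 Tsc2 KO kidneys, each labelled as a separate sample of its group and taken at day 50 after birth from C57BL/6 mice. The Tsc2 KO mice carried KspCre, in which the promoter of cadherin 16 (Cdh16) drives Cre recombinase in tubular epithelium, together with floxed alleles at both copies of Tsc2 (Tsc2 fl/fl). The controls were labelled wild type and described as Cre-negative, so that Tsc2 loss and the presence of Cre cannot be told apart in this comparison. Messenger RNA came from pieces of whole kidney and was sequenced without strand information, and every value below is therefore an average over tubular, glomerular, vascular and immune cells, in which fewer cells of a type and less RNA per cell cannot be told apart. The same cohort also held kidneys lacking Tfeb and kidneys lacking both genes. Their libraries entered the filter on low counts, the normalization and the estimate of the spread, but not the contrast.

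Tuberin, the product of Tsc2, forms with hamartin and Tbc1d7 a complex that switches off the small GTPase Rheb and thereby restrains mTORC1, the growth-controlling kinase on the lysosomal surface. mTORC1 receives amino acid signals through the Rag GTPases, the Ragulator scaffold and folliculin, and by that branch it also phosphorylates TFEB and TFE3, transcription factors of lysosomal and autophagy genes, which act from the nucleus when they are not phosphorylated. Germline loss of TSC2 in people leads to tuberous sclerosis complex, in which kidney cysts and angiomyolipomas are common.

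The 6 libraries held 15679205 to 20541625 reads assigned to genes, and no 2 replicates of a group agreed within sampling noise. Xist was read in all 6 libraries at 15.8 to 23.3 FPKM, fragments scaled for transcript length and library size, and the Y-linked genes Ddx3y, Kdm5d, Eif2s3y and Uty were listed at 0, except for Uty at 0.00654 FPKM in control 1. Cdh16, the gene whose promoter drives the Cre, was measured at 359, 358 and 427 FPKM in the controls and 324, 339 and 348 FPKM in the Tsc2 KO kidneys (log2 fold change -0.18, adjusted p = 0.493). Adipocyte markers set libraries apart within each group. Summed over 10 markers they came to 746, 567 and 216 FPKM in the controls and 26.6, 714 and 20.02 FPKM in the Tsc2 KO kidneys, so that Tsc2 KO 2 resembled the controls and the other 2 Tsc2 KO libraries held little fat. No adipocyte marker passed in the edgeR fit of all 4 genotypes (1 had an unadjusted p under 0.05), Lpl passed downward with DESeq2 and in the edgeR fit of the 2 groups alone, and 8 of the 10 passed downward without Tsc2 KO 2. Of 12 adrenal markers only Star was read often enough to be tested.

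Tsc2 itself, at chr17:24595816-24632630 of mm10 on the minus strand, was read at 8.77, 9.26 and 8.75 FPKM in the controls and 3.54, 3.81 and 4.37 FPKM in the Tsc2 KO kidneys. Every Tsc2 KO kidney lay below every control. The difference was a 2.29-fold reduction (log2 fold change -1.20, SE 0.14, adjusted p = 3.88e-04) in edgeR's quasi-likelihood model, with p-values corrected after Benjamini and Hochberg over the 16631 genes tested. Each SE given here and below was derived as the absolute log2 fold change divided by the square root of the test's F statistic. Reads were counted over the whole gene and the whole kidney, so the remaining level includes exons outside the deletion and cells without Cre. Across the transcriptome, 1270 genes passed an adjusted p of 0.05 upward (7.64% of those tested) and 1033 downward (6.21%), of which 742 rose and 606 fell by 2-fold or more. With the study's additional minimum of 5 FPKM, applied here to the mean of at least 1 group, 729 genes were called higher (4.38%) and 676 lower (4.06%) in Tsc2 KO kidneys. The median log2 fold change of all tested genes was -0.01, and this median and the shares of 7.64% and 6.21% are the background for the gene lists below. The 3 Tsc2 KO libraries lay above all 3 controls in 19.7% of the tested genes and below them in 17.7%. Single libraries moved these counts: the called increases fell to 469 without control 1, 485 without control 2 and 473 without Tsc2 KO 1, and the called decreases to 432 without control 1, 355 without Tsc2 KO 1 and 402 without Tsc2 KO 2.

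Most of the genes that rose furthest were nearly silent in control kidneys. Matn1, which encodes the matrix protein matrilin 1, had no read in any control and 10.5, 10.7 and 7.72 FPKM in the Tsc2 KO kidneys, with 1066 reads there in all and at least 334-fold more than a floor of 3 reads over the control group (adjusted p = 0.00102). Gpnmb, a transmembrane glycoprotein of lysosomes and melanosomes, was read at 0.0393, 0.0297 and 0.0171 FPKM in the controls and 5.87, 8.82 and 4.50 FPKM in the Tsc2 KO kidneys (log2 fold change 7.76, SE 0.85, adjusted p = 3.07e-04). Meltf, the membrane-anchored iron-binding protein melanotransferrin, stood at 0.0155, 0.0624 and 0.0269 FPKM in the controls and 6.82, 5.18 and 7.43 FPKM in the Tsc2 KO kidneys (log2 fold change 7.47, SE 0.44, adjusted p = 1.24e-05). The largest increases and decreases were taken only from genes whose groups did not overlap, so that separation is no finding for them. Most genes named from the lists below were picked by smallest adjusted p in these same libraries. Separation between their groups is favoured by that choice and is given only as a description.

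Nyx, which encodes the leucine-rich repeat protein nyctalopin, gave 0.0247, 0.0622 and 0.0107 FPKM in the controls and 5.00, 7.70 and 5.54 FPKM in the Tsc2 KO kidneys (log2 fold change 7.52, SE 0.79, adjusted p = 2.47e-04). Ttr, the thyroxine and retinol carrier transthyretin, gave 16.3, 29.8 and 46.2 FPKM in the controls and 1822, 928 and 1605 FPKM in the Tsc2 KO kidneys (log2 fold change 5.55, SE 0.58, adjusted p = 2.47e-04), and Ptgds, a lipocalin-type prostaglandin D synthase, gave 5.82, 4.34 and 4.83 FPKM in the controls and 185, 214 and 300.2 FPKM in the Tsc2 KO kidneys (log2 fold change 5.54, SE 0.58, adjusted p = 2.47e-04). The secreted ribonuclease Rnase1 (log2 fold change 5.64, adjusted p = 0.00564), the water channel Aqp8 (5.60, 0.00746) and the predicted gene Gm9732 (5.66, 3.07e-04) rose too. Without control 3, which held 36 of the 37 control reads of Rnase1, the log2 fold change of Rnase1 was 9.87 and that of Aqp8 7.45, and without Tsc2 KO 2 that of Rnase1 was 4.73. Without control 2 those of Nyx and Meltf were 8.35 and 8.12. Timp1, an inhibitor of matrix metalloproteinases, was read at 0.0721, 0.436 and 0.125 FPKM in the controls and 8.88, 5.55 and 7.40 FPKM in the Tsc2 KO kidneys (log2 fold change 5.07, SE 1.13, adjusted p = 0.012), and its adjusted p reached 0.0536 when control 1 or control 3 was left out (log2 fold change 6.07 without control 2).

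The genes that fell furthest included several known from normal proximal tubule. Kap, the kidney androgen-regulated protein, stood at 9775, 7677 and 9490 FPKM in the controls and 549, 274 and 844 FPKM in the Tsc2 KO kidneys (log2 fold change -4.02, SE 0.54, adjusted p = 8.13e-04), a 16.2-fold lower mean. Slc22a7, the organic anion transporter OAT2, was read at 65.3, 81.96 and 93.2 FPKM in the controls and 1.12, 0.699 and 7.21 FPKM in the Tsc2 KO kidneys (log2 fold change -4.72, SE 1.20, adjusted p = 0.023). Akr1c14, a hydroxysteroid dehydrogenase of the aldo-keto reductase family, was read at 54.97, 46.2 and 52.9 FPKM in the controls and 0.389, 0.217 and 4.54 FPKM in the Tsc2 KO kidneys (log2 fold change -4.89, SE 1.22, adjusted p = 0.0212). Sec14l3, a lipid-binding protein, and Lypd2 had log2 fold changes of -5.82 (adjusted p = 0.0215) and -5.10 (0.0133). The lysolipid transporter Mfsd2a (-4.29, 0.015), the complement component C8a (-4.21, 0.0203), the corticosteroid-binding globulin Serpina6 (-4.62, 0.0363), Ly6f (-4.22, 0.04) and Slc22a26 (-5.50, 0.0316), which has close relatives in the same family that could share reads, completed the 10 largest decreases. All 10 kept their direction in the 6 fits that each left out 1 library, but only Kap passed in all 6: Sec14l3, Lypd2, Akr1c14, Slc22a7, Mfsd2a and C8a failed in 2 or 3 of them (adjusted p up to 0.0939), Serpina6 in 4 (up to 0.22), Slc22a26 in 5 (up to 0.116) and Ly6f in 5 (up to 0.156). Serpina6 fell by only 2.29 and Ly6f by 2.97 on the log2 scale without control 1, and Lypd2 by 4.16 and Slc22a26 by 4.72 without control 3. Without Tsc2 KO 3, which held 25 of the 26 Tsc2 KO reads of Sec14l3, all 10 changes were further from 0, with Sec14l3 at -9.50, Akr1c14 at -7.39, Lypd2 at -6.76 and Slc22a7 at -6.45.

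**Figure D1:**
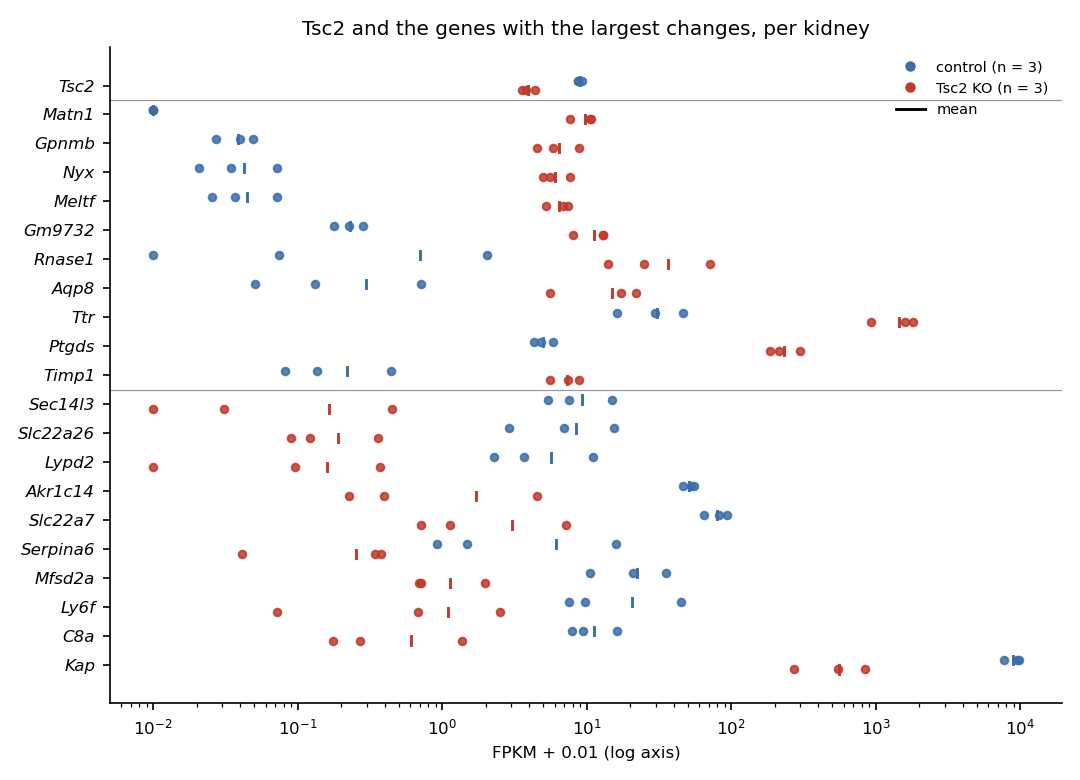
FPKM plus 0.01 on a log axis for Tsc2 and for the 10 largest increases and 10 largest decreases; each point is a kidney and each tick a group mean. The groups do not overlap in any gene drawn, which the choice of the 20 genes required, and Matn1 and Gpnmb start from near 0 in the controls.

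Genes of the TSC complex and of mTORC1 signalling changed in both directions. Of 23 tested, 4 rose and 3 fell, Tsc2 among the latter, with a median log2 fold change of 0.04. Ddit4, a stress-induced inhibitor of mTORC1 also known as Redd1, stood at 18.2, 10.3 and 9.83 FPKM in the controls and 39.5, 40.1 and 33.2 FPKM in the Tsc2 KO kidneys (log2 fold change 1.56, SE 0.24, adjusted p = 0.00164). Tsc1, the partner of Tsc2, was read at 4.25, 3.16 and 3.50 FPKM in the controls and 5.12, 5.38 and 6.46 FPKM in the Tsc2 KO kidneys (log2 fold change 0.63, SE 0.14, adjusted p = 0.0123). The arginine sensor homologue Castor2 (log2 fold change 1.09, adjusted p = 0.0027) and the leucine sensor homologue Sesn1 (0.51, 0.0107) rose as well. Without control 2 or without Tsc2 KO 3 only 3 genes of the list passed upward, and Tsc1 was not among them. Deptor, an inhibitory subunit that binds mTOR, was read at 15.6, 9.18 and 11.1 FPKM in the controls and 5.73, 7.61 and 5.69 FPKM in the Tsc2 KO kidneys (log2 fold change -0.92, SE 0.19, adjusted p = 0.00945). Castor1, an arginine sensor of the mTORC1 pathway, had a log2 fold change of -0.93 (adjusted p = 0.0134), and its adjusted p reached 0.0585 without control 2 or Tsc2 KO 1.

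Several genes of the lysosomal arm of mTORC1 rose. Among 17 tested genes for MiT/TFE factors, Rag GTPases, Ragulator and folliculin, 5 passed upward and none downward (median 0.25), and 1 passed downward with DESeq2 and in the edgeR fit of the 2 groups alone. Rragd, one of the Rag GTPases, was read at 12.8, 10.8 and 17.1 FPKM in the controls and 36.1, 40.6 and 39.6 FPKM in the Tsc2 KO kidneys (log2 fold change 1.51, SE 0.18, adjusted p = 5.11e-04). Its homologue Rragc gave 25.7, 22.2 and 22.7 FPKM in the controls and 38.7, 35.9 and 39.4 FPKM in the Tsc2 KO kidneys (log2 fold change 0.69, SE 0.11, adjusted p = 0.0017). Flcn, folliculin, gave 10.5, 9.70 and 8.09 FPKM in the controls and 14.8, 14.2 and 15.1 FPKM in the Tsc2 KO kidneys (log2 fold change 0.64, SE 0.12, adjusted p = 0.00611). None of these 3 genes overlapped between groups. The Ragulator subunit Lamtor1 had a log2 fold change of 0.53 (adjusted p = 0.00931). Transcripts of the factors themselves moved little: Tfe3 had a log2 fold change of 0.43 (adjusted p = 0.0198, and up to 0.0804 without control 1, Tsc2 KO 1 or Tsc2 KO 3). Tfeb was read at 5.85, 6.05 and 6.24 FPKM in the controls and 3.96, 6.12 and 3.66 FPKM in the Tsc2 KO kidneys and did not pass (log2 fold change -0.41, SE 0.20, adjusted p = 0.223). Tsc2 KO 1 and Tsc2 KO 3 lay below the controls and Tsc2 KO 2 among them, and of the 6 fits that each left out 1 library Tfeb passed, downward, only in the one without Tsc2 KO 2.

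Many lysosomal genes rose. Of 51 tested hydrolases and cofactors, 18 passed upward and 1 downward (median log2 fold change 0.42), and of 30 lysosomal membrane proteins 10 passed upward and none downward (median 0.43). Ctsd, the aspartic protease cathepsin D, was read at 174, 164 and 150.3 FPKM in the controls and 415, 526 and 470.3 FPKM in the Tsc2 KO kidneys (log2 fold change 1.53, SE 0.13, adjusted p = 8.22e-05). Hexa, the alpha subunit of beta-hexosaminidase A, gave 28.4, 28.9 and 27.96 FPKM in the controls and 141, 149 and 141 FPKM in the Tsc2 KO kidneys (log2 fold change 2.33, SE 0.21, adjusted p = 1.29e-04). Ctsb, the cysteine protease cathepsin B, gave 153, 148 and 136 FPKM in the controls and 512, 439 and 625 FPKM in the Tsc2 KO kidneys (log2 fold change 1.85, SE 0.19, adjusted p = 2.13e-04). In each of the 3 the lowest Tsc2 KO kidney exceeded the highest control at least 2-fold. Other hydrolases that rose included the saposin precursor Psap (log2 fold change 1.38), the galactosidase Gla (1.41), the sulfatase Arsb (1.50) and cathepsins C and L (1.41 and 1.65). Ctsh, cathepsin H, went the other way, at 44.4, 38.8 and 38.3 FPKM in the controls and 19.9, 18.3 and 24.1 FPKM in the Tsc2 KO kidneys (log2 fold change -0.97, SE 0.16, adjusted p = 0.00253). Summed over the 51 genes, hydrolase transcripts came to 2844, 2577 and 2559 FPKM in the controls and 5224, 4793 and 5883 FPKM in the Tsc2 KO kidneys, and the groups did not overlap. The number of hydrolase genes that passed upward was 12 without control 2. Ctsk, the bone-resorbing cathepsin K that the text of the study names, was read at 1.82, 3.41 and 3.09 FPKM in the controls and 6.88, 3.73 and 3.89 FPKM in the Tsc2 KO kidneys and did not pass (log2 fold change 0.79, SE 0.40, adjusted p = 0.228). Mlana, a melanocyte antigen, had 5 reads over the controls and 23 over the Tsc2 KO kidneys, too few to be tested.

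Among the membrane proteins, Gpnmb had the largest increase. Clcn7, the chloride and proton exchanger of the lysosome, was read at 8.68, 11.7 and 9.71 FPKM in the controls and 18.97, 19.7 and 22.00 FPKM in the Tsc2 KO kidneys (log2 fold change 1.01, SE 0.14, adjusted p = 8.70e-04). Its obligate partner Ostm1 gave 3.69, 3.23 and 3.73 FPKM in the controls and 6.22, 6.99 and 7.69 FPKM in the Tsc2 KO kidneys (log2 fold change 0.97, SE 0.12, adjusted p = 4.56e-04). The cation channel Mcoln1 (log2 fold change 0.53), the cholesterol exporter Npc1 (0.70), the cystine exporter Ctns (0.60), Cln3 (0.92) and the scavenger receptor Cd68 (2.36), also a macrophage marker, rose too. Lamp1 and Lamp2, the most abundant structural glycoproteins of the lysosomal membrane, were at 0.50 (adjusted p = 0.0508) and 0.26 (0.352) and did not pass.

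The proton pump that acidifies the lysosome followed. Of 23 V-ATPase subunits, 13 passed upward and none downward (median 0.43), and between 10 and 12 passed when 1 library was left out. Atp6v0d2, the d2 subunit of the membrane sector, was read at 16.2, 21.5 and 17.8 FPKM in the controls and 83.4, 111 and 61.8 FPKM in the Tsc2 KO kidneys (log2 fold change 2.20, SE 0.20, adjusted p = 1.29e-04). Atp6v0a1 gave 9.95, 10.2 and 10.2 FPKM in the controls and 23.4, 23.2 and 21.9 FPKM in the Tsc2 KO kidneys (log2 fold change 1.17, SE 0.12, adjusted p = 2.08e-04), and Atp6v0b had a log2 fold change of 0.83 (adjusted p = 0.00163). All 3 subunits were higher in every Tsc2 KO kidney. Atp6v1g3, which like Atp6v0d2 is also made by intercalated cells of the collecting duct, had a log2 fold change of 1.84 (adjusted p = 0.00177). The other intercalated cell subunits were Atp6v1b1 (log2 fold change near 0, adjusted p = 0.997) and Atp6v0a4 (-0.17, 0.698), neither of which passed. Of 35 tested autophagy genes 3 passed upward, a share of 8.57% against 7.64% of all tested genes, and none downward (median 0.07; 5 passed upward with DESeq2): Vps18, a tethering factor of lysosomal fusion (log2 fold change 0.73, SE 0.11, adjusted p = 0.00144), the autophagy receptor Sqstm1, also called p62 (log2 fold change 0.90, SE 0.14, adjusted p = 0.00202), and the receptor Optn (log2 fold change 0.94, SE 0.22, adjusted p = 0.0146), whose adjusted p reached 0.0593 without control 1, control 3 or Tsc2 KO 2.

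The promoters of several of these genes carry the E-box that TFEB and its relatives are known to bind. The windows searched ran from 250 bases before to 50 after each start site in RefSeq (GRCm38.p6), for CACGTG and for the longer TCACGTGA, each of which is its own reverse complement, and every TCACGTGA holds a CACGTG. Of 34 genes with a promoter entry that passed upward in the 3 lysosomal lists, 14 held CACGTG (41.2%) and 10 held TCACGTGA (29.4%). Of 48 genes of these lists that did not pass upward, 11 held the first (22.9%) and 4 the second (8.33%). Over all 11926 tested genes with an entry, the shares were 11.2% and 1.98%. A match is a description of the sequence and was not tested as a site. The 6 genes of smallest adjusted p whose window held TCACGTGA are shown with each CACGTG or TCACGTGA in capitals and the remainder in lower case, written 5′ to 3′ on the strand of the gene. They lie at chr7:142387778-142388077, minus strand (Ctsd), chr17:25133141-25133440, plus strand (Clcn7), chrX:134600956-134601255, minus strand (Gla), chr7:126583187-126583486, minus strand (Cln3), chr2:164833523-164833822, plus strand (Ctsa) and chr8:3500269-3500568, plus strand (Mcoln1).
Ctsd: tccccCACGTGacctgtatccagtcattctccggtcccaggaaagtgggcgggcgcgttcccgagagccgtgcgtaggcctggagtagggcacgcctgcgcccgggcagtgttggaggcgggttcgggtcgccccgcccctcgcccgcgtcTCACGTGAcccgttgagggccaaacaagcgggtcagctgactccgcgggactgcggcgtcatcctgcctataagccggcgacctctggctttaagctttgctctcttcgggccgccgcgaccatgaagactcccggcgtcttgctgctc
Clcn7: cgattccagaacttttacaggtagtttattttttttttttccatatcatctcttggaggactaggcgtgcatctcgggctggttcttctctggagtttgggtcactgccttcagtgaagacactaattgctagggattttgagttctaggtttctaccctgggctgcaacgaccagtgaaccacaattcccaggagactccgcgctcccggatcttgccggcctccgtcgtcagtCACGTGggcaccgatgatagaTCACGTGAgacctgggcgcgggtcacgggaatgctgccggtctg
Gla: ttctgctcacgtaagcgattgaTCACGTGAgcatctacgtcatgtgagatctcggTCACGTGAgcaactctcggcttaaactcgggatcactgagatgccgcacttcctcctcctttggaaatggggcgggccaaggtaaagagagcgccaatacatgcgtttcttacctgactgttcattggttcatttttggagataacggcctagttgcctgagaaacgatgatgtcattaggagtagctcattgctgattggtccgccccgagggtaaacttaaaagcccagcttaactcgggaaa
Cln3: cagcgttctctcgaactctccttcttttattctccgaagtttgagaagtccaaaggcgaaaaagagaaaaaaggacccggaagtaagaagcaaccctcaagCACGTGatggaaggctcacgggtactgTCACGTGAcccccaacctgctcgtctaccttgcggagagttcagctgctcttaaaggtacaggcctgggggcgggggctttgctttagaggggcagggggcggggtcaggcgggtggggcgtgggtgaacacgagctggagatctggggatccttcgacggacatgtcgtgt
Ctsa: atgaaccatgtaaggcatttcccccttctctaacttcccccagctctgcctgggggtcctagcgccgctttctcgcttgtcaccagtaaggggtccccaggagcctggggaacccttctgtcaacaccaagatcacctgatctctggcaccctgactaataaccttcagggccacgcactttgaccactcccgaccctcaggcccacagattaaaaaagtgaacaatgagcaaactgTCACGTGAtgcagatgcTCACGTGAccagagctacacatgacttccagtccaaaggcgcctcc
Mcoln1: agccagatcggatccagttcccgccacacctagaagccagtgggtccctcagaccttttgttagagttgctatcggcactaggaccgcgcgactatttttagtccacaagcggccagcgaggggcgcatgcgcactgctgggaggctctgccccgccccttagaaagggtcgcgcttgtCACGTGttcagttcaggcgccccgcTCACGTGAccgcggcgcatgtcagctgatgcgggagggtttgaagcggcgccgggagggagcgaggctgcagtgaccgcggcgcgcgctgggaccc

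In Ctsa and Gla both matches were of the longer form, and in Ctsd, Clcn7, Cln3 and Mcoln1 one match was of each form. The CACGTG of the first match began 12 bases before the start site in Ctsa, 15 in Clcn7, 71 in Mcoln1, 149 in Cln3, 227 in Gla and 245 in Ctsd. The log2 fold changes of these 6 genes were 0.85, 1.01, 0.53, 0.92, 1.41 and 1.53 in the same order. Gpnmb, Hexa, Rragd and Flcn rose as well and had no CACGTG in the window. Ctsb and Atp6v0d2 had no promoter entry and were not searched.

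**Figure D2:**
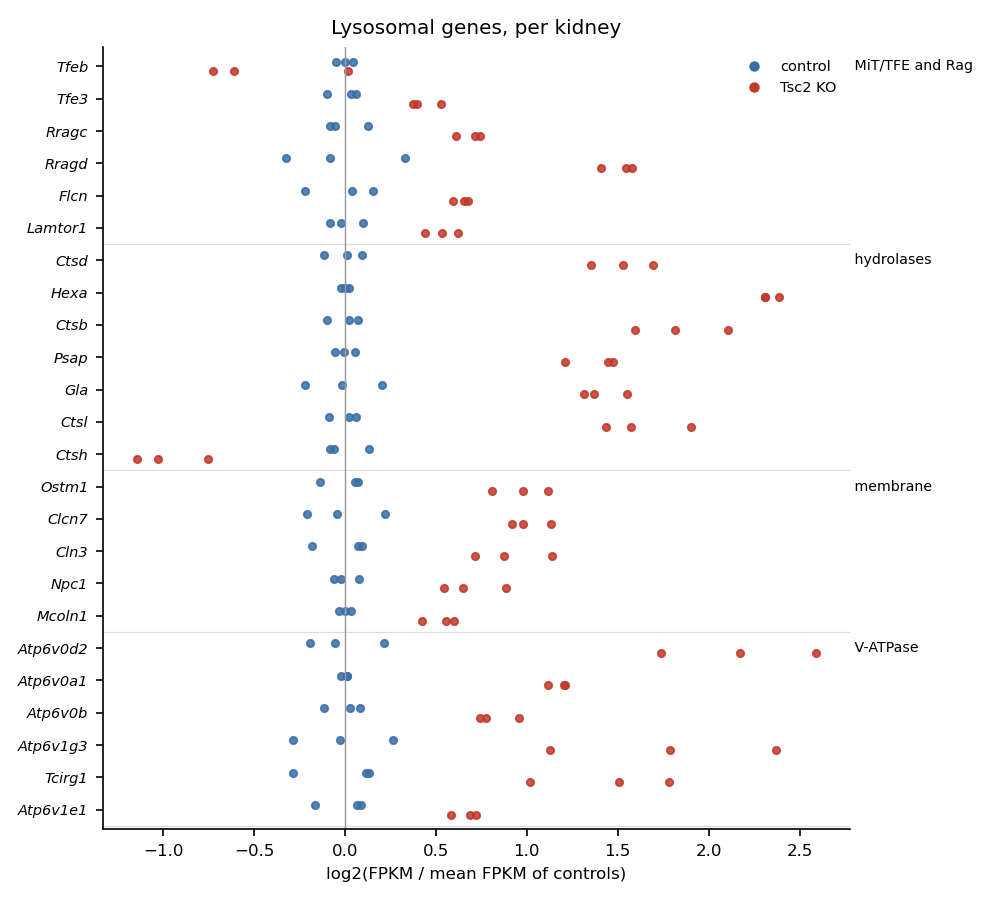
FPKM of each kidney divided by the mean of the 3 controls, as log2, for lysosomal, V-ATPase and Rag or MiT/TFE genes named in the text; blue points are controls and red points Tsc2 KO kidneys. Ctsd, Hexa, Ctsb and Atp6v0d2 lie above the controls in 3 of 3 Tsc2 KO kidneys, Ctsh lies below, and Tfeb overlaps.

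Genes of the amino acid response rose in number, with exceptions. Of 31 tested targets of the transcription factor ATF4 and genes of serine and one-carbon metabolism, 12 passed upward and 3 downward (median 0.69). Mthfd2, a mitochondrial folate enzyme, was read at 1.16, 1.70 and 1.08 FPKM in the controls and 4.93, 6.53 and 5.26 FPKM in the Tsc2 KO kidneys (log2 fold change 2.08, SE 0.24, adjusted p = 3.88e-04). Aldh18a1, which makes the precursor of proline, gave 0.833, 1.12 and 1.20 FPKM in the controls and 5.19, 5.35 and 4.57 FPKM in the Tsc2 KO kidneys (log2 fold change 2.25, SE 0.22, adjusted p = 1.96e-04). The stress-responsive factor Atf5 gave 10.2, 8.25 and 6.70 FPKM in the controls and 28.2, 37.6 and 23.3 FPKM in the Tsc2 KO kidneys (log2 fold change 1.82, SE 0.28, adjusted p = 0.00172). No Tsc2 KO kidney overlapped the controls in these genes. Cth, the enzyme that releases cysteine from cystathionine, fell (log2 fold change -1.50, SE 0.24, adjusted p = 0.00206), as did Shmt2 (log2 fold change -0.77, SE 0.19, adjusted p = 0.018) and Vldlr (log2 fold change -0.62, SE 0.18, adjusted p = 0.0425). Only 1 of the 3 decreases, that of Cth, passed without control 1, Tsc2 KO 1 or Tsc2 KO 2. Glycolysis and pentose phosphate genes gave 3 increases and 1 decrease among 26 (median 0.14): the phosphofructokinase Pfkp (log2 fold change 1.23, SE 0.23, adjusted p = 0.00556), Pgd (0.72, adjusted p = 0.0173), Eno2 (1.56, 0.035) and, downward, Pfkl (-0.56, 0.049). Only Pfkp passed in all 6 fits that left out 1 library.

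Many genes of the joint list of sterol and fatty acid synthesis rose. Of 31 tested genes of sterol and fatty acid synthesis, 14 passed upward and none downward (median 0.48). Sqle, squalene epoxidase, was read at 11.4, 10.2 and 13.1 FPKM in the controls and 25.3, 21.5 and 28.8 FPKM in the Tsc2 KO kidneys (log2 fold change 1.12, SE 0.14, adjusted p = 6.02e-04). Msmo1, a sterol methyl oxidase, gave 4.13, 4.26 and 6.28 FPKM in the controls and 15.5, 10.7 and 16.1 FPKM in the Tsc2 KO kidneys (log2 fold change 1.52, SE 0.21, adjusted p = 9.49e-04). The sterol sensor partner Insig1 (log2 fold change 1.76) rose too. Fdps, farnesyl diphosphate synthase, passed (log2 fold change 3.36, SE 0.51, adjusted p = 0.00164), with log2 fold changes of 3.02 to 4.24 over the alternative fits. It was read at only 0.0457, 0.0306 and 0.132 FPKM in the controls and 0.910, 0.712 and 0.606 FPKM in the Tsc2 KO kidneys. Near-identical copies in the genome make its level uncertain. Among the members of the list, Fasn, Acaca and Scd1, which act mainly in fatty acid synthesis, did not pass. Their log2 fold changes were 0.18 (adjusted p = 0.94), 0.18 (0.924) and -0.87 (0.612). Only 7 genes passed without control 2 or without Tsc2 KO 3, and 13 without Tsc2 KO 2, the Tsc2 KO library with adipocyte transcripts.

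Several genes of fatty acid oxidation fell. None of 32 passed upward and 7 passed downward (median -0.41). Ehhadh, a peroxisomal enzyme of beta-oxidation, was read at 268, 194 and 233 FPKM in the controls and 38.9, 53.3 and 57.99 FPKM in the Tsc2 KO kidneys (log2 fold change -2.21, SE 0.18, adjusted p = 8.22e-05). Acadm, the medium-chain acyl-CoA dehydrogenase of mitochondria, gave 364, 248 and 309 FPKM in the controls and 68.3, 94.4 and 104 FPKM in the Tsc2 KO kidneys (log2 fold change -1.79, SE 0.26, adjusted p = 0.00132). Cyp4a14, a fatty acid omega-hydroxylase, gave 187, 153 and 198 FPKM in the controls and 12.96, 30.6 and 29.4 FPKM in the Tsc2 KO kidneys (log2 fold change -2.88, SE 0.47, adjusted p = 0.00224). For all 3 the highest Tsc2 KO kidney remained below the lowest control. Only 4 genes passed without Tsc2 KO 1. Nuclear genes of oxidative phosphorylation hardly passed, with 1 of 45 lower (Ndufs7, log2 fold change -0.52, SE 0.15, adjusted p = 0.0373), and it passed in none of the 6 fits that left out 1 library. The list had a median of -0.12, with Cox6a1 at -0.02 (adjusted p = 0.96) and Cox8a at -0.18 (0.451).

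**Figure D3:**
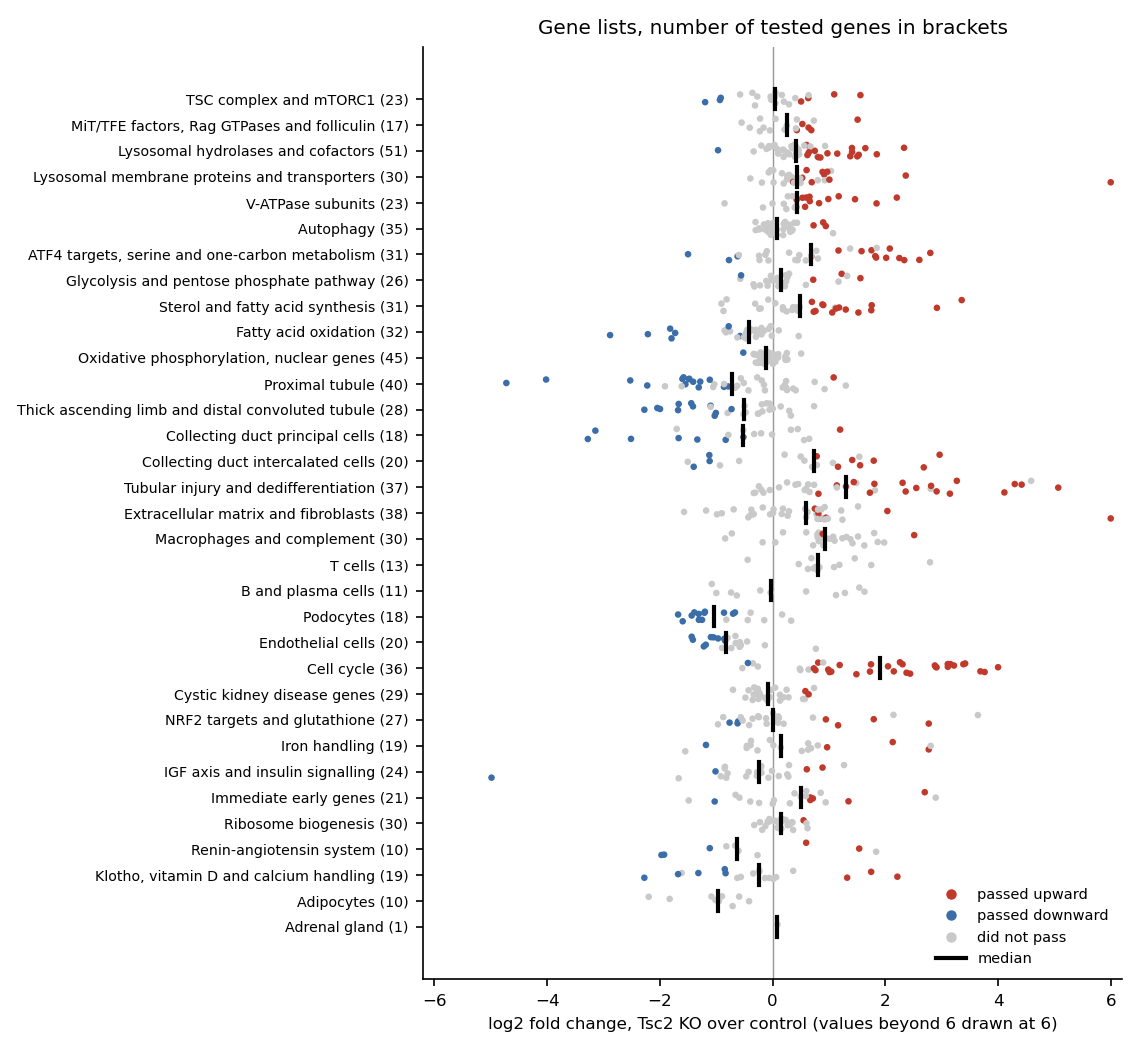
Log2 fold changes, Tsc2 KO minus control, of every tested gene in 33 lists; red dots passed upward, blue dots downward, grey dots did not pass, and black bars are medians, with values beyond 6 drawn at 6. Medians run from -1.03 for podocytes to 1.90 for the cell cycle list.

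Many markers of the proximal tubule, the segment that reabsorbs most of the filtrate, were lower. Of 40 tested, 15 passed downward and 1 upward (median -0.72). Slc22a6, the organic anion transporter OAT1 that takes up organic anions from blood, was read at 141, 114 and 149.6 FPKM in the controls and 18.5, 20.5 and 31.5 FPKM in the Tsc2 KO kidneys (log2 fold change -2.53, SE 0.25, adjusted p = 1.87e-04). Its relative Slc22a8, or OAT3, gave 269.8, 268 and 266 FPKM in the controls and 58.8, 47.8 and 65.8 FPKM in the Tsc2 KO kidneys (log2 fold change -2.22, SE 0.22, adjusted p = 1.76e-04). Ggt1, the brush border gamma-glutamyl transferase, gave 278, 218 and 226 FPKM in the controls and 72.4, 74.9 and 94.95 FPKM in the Tsc2 KO kidneys (log2 fold change -1.58, SE 0.15, adjusted p = 1.54e-04). Each stood 2-fold or more lower on average and without overlap. The exception was Slc2a2, the basolateral glucose transporter GLUT2, at 32.5, 29.4 and 26.4 FPKM in the controls and 68.8, 47.6 and 71.2 FPKM in the Tsc2 KO kidneys (log2 fold change 1.08, SE 0.31, adjusted p = 0.036), which passed in only 1 of the 6 fits that left out 1 library, the one without Tsc2 KO 2 (adjusted p up to 0.111). Summed over the list, marker transcripts came to 20190, 16440 and 17020 FPKM in the controls and 5352, 4081 and 7497 FPKM in the Tsc2 KO kidneys, a sum in which Kap was the largest single part in the controls.

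Distal segments were lower in part. Of 28 markers of the thick ascending limb and distal convoluted tubule, 11 passed downward and none upward (median -0.51), and 7 passed without Tsc2 KO 1 or without Tsc2 KO 2. Calb1, the calcium-binding protein calbindin of the distal convoluted tubule, was read at 112, 113 and 104 FPKM in the controls and 21.1, 12.4 and 34.5 FPKM in the Tsc2 KO kidneys (log2 fold change -2.27, SE 0.33, adjusted p = 0.0012). Wnk4, a kinase that controls salt transport, had a log2 fold change of -0.73 (adjusted p = 0.00354). The summed level of the list nevertheless overlapped between groups, at 3617, 3725 and 3980 FPKM against 3767, 3819 and 4002 FPKM, and its abundant member Umod, uromodulin, was at 1077, 1112 and 1181 FPKM in the controls and 1821, 1830 and 1978 FPKM in the Tsc2 KO kidneys (log2 fold change 0.74, adjusted p = 0.0804).

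In the collecting duct, principal and intercalated cell markers moved apart. Of 18 tested principal cell markers, 7 passed downward and 1 upward (median -0.52). Fxyd4, a regulator of the sodium pump, was read at 12.4, 21.7 and 33.4 FPKM in the controls and 2.21, 2.67 and 2.78 FPKM in the Tsc2 KO kidneys (log2 fold change -3.14, SE 0.37, adjusted p = 4.51e-04). Aqp3, a basolateral water channel, gave 84.3, 90.2 and 122 FPKM in the controls and 24.4, 34.1 and 35.03 FPKM in the Tsc2 KO kidneys (log2 fold change -1.67, SE 0.21, adjusted p = 6.04e-04). Apela, a peptide hormone, gave 26.7, 39.2 and 59.4 FPKM in the controls and 7.36, 4.74 and 9.87 FPKM in the Tsc2 KO kidneys (log2 fold change -2.51, SE 0.41, adjusted p = 0.00253). The 3 genes did not overlap between groups. Aqp2, the vasopressin-regulated water channel, was at 235, 300.1 and 574 FPKM in the controls and 141, 149.7 and 150.4 FPKM in the Tsc2 KO kidneys (log2 fold change -1.34, adjusted p = 0.0256). The single increase was Stmn1 (log2 fold change 1.20, SE 0.21, adjusted p = 0.00354), a microtubule-destabilizing protein also made by dividing cells. Without Tsc2 KO 1, 4 principal cell markers passed downward.

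Of 20 intercalated cell markers, 7 passed upward and 3 downward (median 0.74). Foxi1, the transcription factor that specifies intercalated cells, was read at 19.7, 30.3 and 11.2 FPKM in the controls and 75.9, 91.3 and 45.6 FPKM in the Tsc2 KO kidneys (log2 fold change 1.80, SE 0.34, adjusted p = 0.00504). Spink8 gave 19.03, 19.9 and 16.2 FPKM in the controls and 118, 149 and 88.6 FPKM in the Tsc2 KO kidneys (log2 fold change 2.68, SE 0.23, adjusted p = 8.22e-05) and Hepacam2 gave 4.24, 4.51 and 3.43 FPKM in the controls and 10.6, 15.1 and 10.1 FPKM in the Tsc2 KO kidneys (log2 fold change 1.55, SE 0.20, adjusted p = 6.42e-04). Dmrt2, a marker of the acid-secreting type A cell, stood at 2.24, 3.46 and 2.96 FPKM in the controls and 21.8, 34.4 and 11.8 FPKM in the Tsc2 KO kidneys (log2 fold change 2.96, SE 0.42, adjusted p = 0.00112). Kit, Adgrf5 and Oxgr1, a receptor known from type B and other non-A cells, also rose (log2 fold changes 1.41, 1.16 and 0.78). The genes that fell are likewise known from type B or non-A cells, so such markers passed in both directions: the transporter Slc4a9 (log2 fold change -1.12, SE 0.24, adjusted p = 0.0112), the receptor Insrr (log2 fold change -1.40, SE 0.21, adjusted p = 0.00132) and the factor Hmx2 (log2 fold change -1.12, SE 0.23, adjusted p = 0.0078). The defining exchangers of the types did not pass, with Slc4a1 of type A at 0.56 (adjusted p = 0.334) and Slc26a4, pendrin, of type B at -0.59 (0.139). With 1 library left out 6 markers of the list passed upward, or 7 without Tsc2 KO 3, and 3 passed downward in each such fit.

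Regulators of calcium and phosphate moved in both directions. Of 19 tested genes of the Klotho, vitamin D and calcium list, 3 passed upward and 5 downward (median -0.23). Slc20a1, the sodium-phosphate cotransporter PiT-1, was read at 3.91, 3.63 and 3.18 FPKM in the controls and 13.96, 21.9 and 14.1 FPKM in the Tsc2 KO kidneys (log2 fold change 2.21, SE 0.18, adjusted p = 6.03e-05). The epithelial calcium channels Trpv5 (log2 fold change 1.32, SE 0.24, adjusted p = 0.00402) and Trpv6 (log2 fold change 1.75, SE 0.33, adjusted p = 0.00564) rose, while calbindin fell as given above. Kl, Klotho, the co-receptor of FGF23, stood at 91.4, 87.3 and 98.2 FPKM in the controls and 36.2, 29.4 and 45.9 FPKM in the Tsc2 KO kidneys (log2 fold change -1.32, SE 0.19, adjusted p = 0.00123). The calcium pump Atp2b4 had a log2 fold change of -0.83 (adjusted p = 0.00926). Without Tsc2 KO 1, 3 of the list passed downward.

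**Figure D4:**
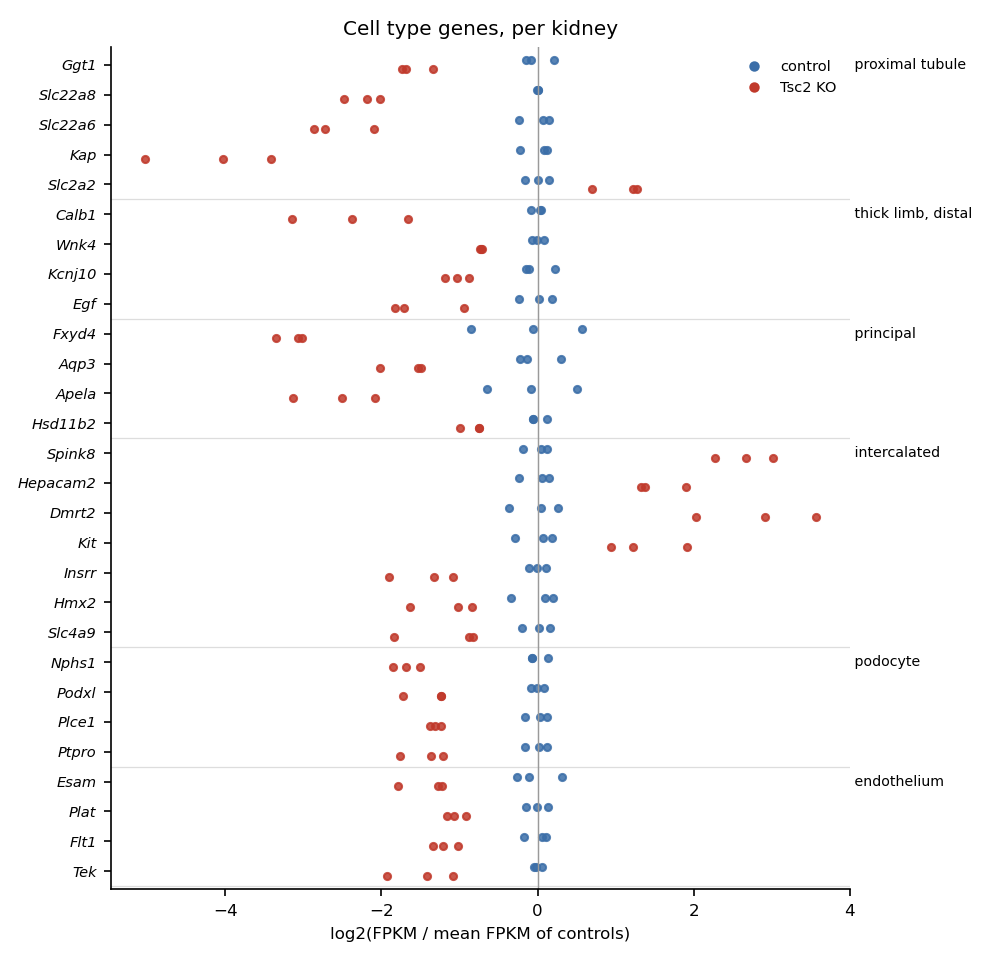
FPKM of each kidney divided by the mean of the 3 controls, as log2, for markers of nephron segments, podocytes and endothelium; blue points are controls and red points Tsc2 KO kidneys. The proximal, distal, principal cell, podocyte and endothelial markers drawn lie below the controls except for Slc2a2, and Spink8, Hepacam2, Dmrt2 and Kit of the intercalated cells lie above them.

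Many markers of podocytes and of endothelium, cells outside the tubular epithelium, were also lower. Of 18 podocyte markers 12 passed downward and none upward (median -1.03). Nphs1, the slit diaphragm protein nephrin, was read at 7.08, 8.18 and 7.05 FPKM in the controls and 2.31, 2.07 and 2.62 FPKM in the Tsc2 KO kidneys (log2 fold change -1.68, SE 0.18, adjusted p = 3.07e-04). Podxl, podocalyxin, gave 62.1, 69.5 and 64.98 FPKM in the controls and 27.7, 19.9 and 27.8 FPKM in the Tsc2 KO kidneys (log2 fold change -1.39, SE 0.18, adjusted p = 6.47e-04). Both were lower in 3 of 3 Tsc2 KO kidneys. Summed over the list, the levels were 168, 199.9 and 194 FPKM in the controls and 110.0, 81.8 and 106 FPKM in the Tsc2 KO kidneys, and 8 markers passed without control 2 or without Tsc2 KO 2. Of 20 endothelial markers 9 passed downward and none upward (median -0.82): Esam had a log2 fold change of -1.41 (SE 0.28, adjusted p = 0.00663), Plat, tissue plasminogen activator, one of -1.05 (SE 0.21, adjusted p = 0.00746) and Flt1, a receptor of VEGF, one of -1.18 (SE 0.26, adjusted p = 0.012). Without Tsc2 KO 2 only 2 endothelial markers passed. Of the haemoglobin transcripts 1 passed. Hbb-bs was read at 67.1, 199 and 254 FPKM in the controls and 9.41, 21.9 and 20.9 FPKM in the Tsc2 KO kidneys (log2 fold change -3.32, SE 0.94, adjusted p = 0.036), and Hba-a1, Hba-a2 and Hbb-bt had log2 fold changes of -3.11, -3.17 and -3.50 with adjusted p of 0.0755, 0.0731 and 0.0541. Reads may be shared between the near-identical copies Hba-a1 and Hba-a2, and between Hbb-bs and Hbb-bt. Whether blood content has a part in the vascular or glomerular values was not tested.

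The renin-angiotensin list gave 2 increases and 3 decreases among 10 tested genes (median -0.63). Ace, angiotensin-converting enzyme, was read at 67.2, 32.2 and 30.4 FPKM in the controls and 9.08, 9.94 and 14.1 FPKM in the Tsc2 KO kidneys (log2 fold change -1.97, SE 0.33, adjusted p = 0.00289). Anpep, the aminopeptidase that trims angiotensins at the proximal brush border, gave 52.6, 52.1 and 50.1 FPKM in the controls and 22.7, 19.8 and 29.3 FPKM in the Tsc2 KO kidneys (log2 fold change -1.11, SE 0.16, adjusted p = 0.00111). Ren1, renin, gave 91.7, 64.3 and 37.8 FPKM in the controls and 13.2, 9.25 and 28.6 FPKM in the Tsc2 KO kidneys (log2 fold change -1.92, SE 0.58, adjusted p = 0.0477), and its adjusted p reached 0.158 with 1 library left out. The increases were Agt, angiotensinogen (log2 fold change 1.54, SE 0.44, adjusted p = 0.0377), and the prorenin receptor Atp6ap2 (log2 fold change 0.60, SE 0.15, adjusted p = 0.0218), of which Agt passed in none and Atp6ap2 in 1 of the 6 fits that left out 1 library.

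Many genes of tubular injury rose. Of 37 tested genes of tubular injury and dedifferentiation, 17 passed upward and none downward (median 1.30), and 10 passed without Tsc2 KO 1. Spp1, osteopontin, a secreted phosphoprotein of injured tubules, was read at 1184, 1412 and 1506 FPKM in the controls and 7528, 5681 and 7151 FPKM in the Tsc2 KO kidneys (log2 fold change 2.31, SE 0.20, adjusted p = 8.22e-05). Tnfrsf12a, the TWEAK receptor Fn14, gave 6.20, 7.11 and 6.19 FPKM in the controls and 39.4, 38.99 and 36.2 FPKM in the Tsc2 KO kidneys (log2 fold change 2.55, SE 0.20, adjusted p = 6.03e-05). Fgb, fibrinogen beta, gave 0.756, 0.203 and 0.540 FPKM in the controls and 10.5, 7.72 and 14.1 FPKM in the Tsc2 KO kidneys (log2 fold change 4.42, SE 0.46, adjusted p = 2.47e-04). The nearest kidneys of the groups were still more than 2-fold apart in all 3. The regeneration factor Sox9 (log2 fold change 2.81), the hyaluronan receptor Cd44 (2.91), the cell cycle inhibitor Cdkn1a (2.36) and the chemokines Cxcl1 (4.11) and Ccl2 (3.27) rose as well. The urinary injury markers Havcr1, or KIM-1, and Lcn2, or NGAL, did not pass: Havcr1 was at 0.0277, 0.223 and 39.8 FPKM in the controls and 39.5, 24.9 and 48.6 FPKM in the Tsc2 KO kidneys (adjusted p = 0.654), with control 3 within the range of the Tsc2 KO kidneys and the other controls near 0, and Lcn2 at 0.903, 2.16 and 3.97 FPKM in the controls and 17.1, 13.5 and 19.1 FPKM in the Tsc2 KO kidneys (adjusted p = 0.198).

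Matrix and macrophage genes were higher by their medians, and the number of them that passed depended on the fit. Of 38 extracellular matrix and fibroblast genes 6 passed upward and none downward (median 0.59). Besides Matn1 these included the alpha 1 and alpha 2 chains of basement membrane collagen, Col4a2 at 29.1, 38.1 and 37.2 FPKM in the controls and 75.99, 53.3 and 61.3 FPKM in the Tsc2 KO kidneys (log2 fold change 0.86, SE 0.16, adjusted p = 0.00498) and Col4a1 (log2 fold change 0.81, SE 0.20, adjusted p = 0.0206), and only 2 genes of the list passed without control 1 or without Tsc2 KO 1. With DESeq2 11 matrix genes passed upward and 3 downward, and in the edgeR fit of the 2 groups alone 12 and 3. Fibrillar collagen did not pass, with Col1a1 at 1.52 (adjusted p = 0.0508). Of 30 macrophage and complement genes 2 passed upward (median 0.92), a share of 6.67% against 7.64% of all tested genes. They were the complement factors C3, at 22.7, 17.9 and 8.24 FPKM in the controls and 85.3, 63.98 and 130.2 FPKM in the Tsc2 KO kidneys (log2 fold change 2.51, SE 0.61, adjusted p = 0.0181), and Cfi (log2 fold change 0.89, SE 0.26, adjusted p = 0.0399). Neither gene passed without control 2, control 3 or Tsc2 KO 3. In the edgeR fit of the 2 groups alone 10 genes of the list passed upward and 1 downward, and Cfi did not pass there. With DESeq2 3 passed upward. Summed over the list, the levels were 265, 371 and 317 FPKM in the controls and 1134, 739 and 800.4 FPKM in the Tsc2 KO kidneys, without overlap. In this list the 3 Tsc2 KO kidneys lay above all 3 controls in 22 of 30 genes, against 19.7% of all tested genes, among them the MHC class II chain Cd74 at 131, 199.7 and 157 FPKM in the controls and 745, 498 and 462 FPKM in the Tsc2 KO kidneys (adjusted p = 0.0859). The macrophage markers Adgre1 and Csf1r were at 0.82 (adjusted p = 0.449) and -0.72 (0.358). None of 13 T cell markers (median 0.80) and none of 11 B and plasma cell markers (median -0.04) passed by edgeR or by DESeq2, with 0 genes of either list at an unadjusted p under 0.05. Among these Thy1 was at 0.80 (adjusted p = 0.569), Trbc2 at 0.63 (0.758), Igkc at 1.63 (0.483) and Jchain at 1.54 (0.482).

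Proliferation genes had the highest median of all lists. Of 36 tested cell cycle genes 28 passed upward and 1 downward (median 1.90), and 23 to 27 passed upward when 1 library was left out. Mki67, the marker of dividing cells Ki-67, was read at 0.216, 0.628 and 0.487 FPKM in the controls and 5.42, 5.05 and 3.52 FPKM in the Tsc2 KO kidneys (log2 fold change 3.38, SE 0.43, adjusted p = 6.26e-04). Ccna2, cyclin A2, gave 0.361, 0.458 and 0.368 FPKM in the controls and 3.24, 2.95 and 2.69 FPKM in the Tsc2 KO kidneys (log2 fold change 2.90, SE 0.36, adjusted p = 5.21e-04), and Rrm2, a subunit of ribonucleotide reductase, gave 2.13, 3.44 and 2.17 FPKM in the controls and 14.7, 16.2 and 11.3 FPKM in the Tsc2 KO kidneys (log2 fold change 2.44, SE 0.23, adjusted p = 1.48e-04). The levels remained low in FPKM but were separated between groups in every kidney. The decrease was Cdkn1b, the inhibitor p27 (log2 fold change -0.44, SE 0.10, adjusted p = 0.0163), which failed in 4 of the 6 fits that left out 1 library (adjusted p up to 0.0656). Of 29 genes of inherited cystic kidney disease 2 passed upward, a share near that of all tested genes, namely Flcn and the intraflagellar transport gene Ift140 (log2 fold change 0.58, adjusted p = 0.0146). Their median was -0.09, and with DESeq2 3 passed upward and 2 downward. The polycystins were at -0.26 (Pkd1, adjusted p = 0.32) and 0.13 (Pkd2, 0.646). Ribosome biogenesis, a process under mTORC1 control, had 1 of 30 genes higher (Wdr12, log2 fold change 0.55, SE 0.12, adjusted p = 0.0118) and a median of 0.15, with Npm1 at -0.06 (adjusted p = 0.867) and Nhp2 at 0.37 (0.199). Wdr12 did not pass without control 2 or without Tsc2 KO 1, and Ift140 did not pass without control 2 or without Tsc2 KO 2.

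Oxidative stress and iron genes split. Of 27 NRF2 targets and glutathione genes, 4 passed upward and 3 downward (median 0.01). Hmox1, the haem-degrading oxygenase, was read at 9.51, 13.6 and 9.57 FPKM in the controls and 84.8, 50.7 and 88.1 FPKM in the Tsc2 KO kidneys (log2 fold change 2.77, SE 0.32, adjusted p = 3.88e-04). Srxn1, sulfiredoxin, gave 21.2, 20.7 and 22.4 FPKM in the controls and 45.2, 47.7 and 51.5 FPKM in the Tsc2 KO kidneys (log2 fold change 1.16, SE 0.12, adjusted p = 2.15e-04), and Cbr3, a carbonyl reductase, gave 1.23, 1.59 and 2.17 FPKM in the controls and 6.46, 5.53 and 5.48 FPKM in the Tsc2 KO kidneys (log2 fold change 1.80, SE 0.28, adjusted p = 0.00179). The decreases were genes of glutathione synthesis and recycling, Gclm (-0.61, adjusted p = 0.0148), Gclc (-0.62, 0.0418) and Gsr (-0.76, 0.0164). The groups overlapped in Gclc, and none of the 3 passed without Tsc2 KO 1 or without Tsc2 KO 2. Of 19 iron genes 3 passed upward and 1 downward (median 0.15): Hmox1, the hepcidin regulator Hfe (log2 fold change 0.97, SE 0.14, adjusted p = 0.00126) and transferrin, Trf, at 1.31, 1.65 and 1.01 FPKM in the controls and 2.51, 3.96 and 10.96 FPKM in the Tsc2 KO kidneys (log2 fold change 2.13, SE 0.51, adjusted p = 0.0168), with the ferrireductase Steap3 lower (log2 fold change -1.18, SE 0.29, adjusted p = 0.0187). With DESeq2 6 iron genes passed upward, and 7 did in the edgeR fit of the 2 groups alone. Trf did not pass without control 1, control 3 or Tsc2 KO 3 (adjusted p up to 0.0646), and Steap3 did not pass without control 1, Tsc2 KO 1 or Tsc2 KO 3 (up to 0.0763). Over the alternative fits the log2 fold change of Trf went as low as 1.29. In the vehicle cohort described below that of Trf was -1.12 by edgeR and did not pass (adjusted p = 0.089).

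In the insulin and IGF list 2 of 24 rose and 2 fell (median -0.24), shares of 8.33% each that are near the 7.64% and 6.21% of all tested genes. Igf2r, which carries lysosomal enzymes and clears IGF2, was read at 11.9, 8.26 and 8.24 FPKM in the controls and 16.5, 15.8 and 20.2 FPKM in the Tsc2 KO kidneys (log2 fold change 0.89, SE 0.20, adjusted p = 0.014), and the receptor adaptor Grb10 had a log2 fold change of 0.61 (SE 0.15, adjusted p = 0.0177). Foxo1 had one of -1.01 (SE 0.26, adjusted p = 0.0223). Igf2 itself had 39 reads over the controls and 1 over the Tsc2 KO kidneys, a ratio of 0.0241 (95% counting interval 0.000596 to 0.143; adjusted p = 0.0314). Igf2r and Grb10 did not pass without control 2 or without Tsc2 KO 3, Foxo1 did not pass without control 1 or any 1 of the Tsc2 KO libraries, and Igf2 passed in none of the 6 fits that left out 1 library. Of 21 immediate early genes 5 passed upward and 1 downward (median 0.50), among them Klf6 at 11.4, 8.43 and 8.87 FPKM in the controls and 26.6, 21.9 and 24.6 FPKM in the Tsc2 KO kidneys (log2 fold change 1.35, SE 0.25, adjusted p = 0.00455), Fosl2 (0.67, adjusted p = 0.0164) and Jund (0.67, 0.0193), with Klf2, a factor of endothelial cells, lower (-1.03, 0.0498) though its groups overlapped. Of the increases, 2 or 3 passed when 1 library was left out, and Klf2 failed in 4 of the 6 such fits (adjusted p up to 0.175) and in the edgeR fit of the 2 groups alone.

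The nearest comparison in the series was that of the same genotypes in mice injected with vehicle on the schedule of a rapamycin trial and also taken at day 50, with 3 kidneys a group and controls of their own. In a fit of both cohorts together over 16641 genes, 3159 genes passed upward (19.0%) and 2995 downward (18.0%) in the vehicle cohort. Of the 1270 genes that passed upward in untreated kidneys, 1131 passed upward there too (89.1% of the untreated list and 36.9% of the 3068 vehicle genes tested in both fits) and 0 downward. Of 1027 that passed downward and were tested in both, 882 did so there (85.9% of the untreated list and 29.6% of the 2976 vehicle genes tested in both) and 1 passed upward. The change differed between cohorts in 0 genes (0%) at an adjusted p of 0.05 by edgeR, with 2187 genes at an unadjusted p under 0.05, and in 424 genes by DESeq2. The count by edgeR was 34 without control 1, 49 without Tsc2 KO 2, 2 without Tsc2 KO 3 and 87 without vehicle Tsc2 KO 3.

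Except for the NRF2 and iron lists, the medians of the 33 lists had the same sign in both cohorts, and many were further from 0 in the vehicle cohort. The proximal tubule list stood at -0.72 in untreated and -1.64 in vehicle kidneys, fatty acid oxidation at -0.41 and -0.92, podocytes at -1.03 and -1.41, ATF4 targets at 0.69 and 1.15, and V-ATPase subunits at 0.43 and 0.62. Other medians had the same sign but were nearer to 0 in the vehicle cohort. Among them were endothelial markers (-0.82 and -0.46), principal cell markers (-0.52 and -0.30), sterol and fatty acid synthesis (0.48 and 0.28) and lysosomal hydrolases (0.42 and 0.34). The same held for the MiT/TFE and Rag list (0.25 and 0.16), intercalated cells (0.74 and 0.67), T cells (0.80 and 0.68) and the IGF axis (-0.24 and -0.23). These differences between medians were not tested. Xist was lower in vehicle Tsc2 KO than in vehicle control kidneys (log2 fold change -1.15, adjusted p = 6.19e-04), and its part in the differences between cohorts was not tested. Tsc2 fell by a log2 value of 1.20 in untreated and 1.21 in vehicle kidneys. Tfeb had a log2 fold change of -0.41 in untreated and 0.41 in vehicle kidneys, and neither passed (adjusted p = 0.223 and 0.0775; difference between cohorts, adjusted p = 0.19).

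**Figure D5:**
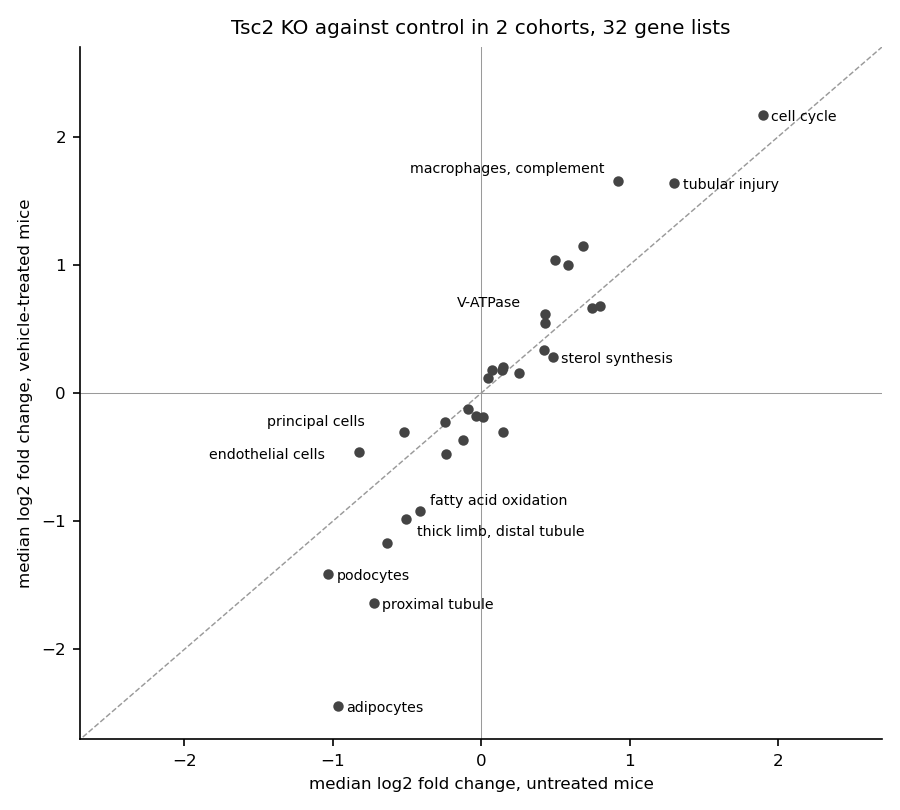
Median log2 fold change, Tsc2 KO minus control, of 32 gene lists in untreated kidneys (x axis) against vehicle-treated kidneys (y axis), with the adrenal list left out because 1 of its genes was tested; the dashed line marks equal values. Proximal tubule markers lie at -0.72 and -1.64, below the line, and cell cycle genes at 1.90 and 2.17.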

How the data were processed

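RNA from whole-kidney pieces was poly(A)-selected and sequenced without strand information. The authors deposited, for each cohort, a table of raw read counts per gene and a table of FPKM. Their processing notes name STAR 2.6.1d, HISAT2 2.0.5, featureCounts 1.5.0-p3, DESeq2 1.20.0 and the mm10 build, and the role of each aligner is not given in the sources used here. In the deposited tables the FPKM were the counts scaled per gene length and library. Of 54532 gene identifiers 53499 had the same coordinates in GENCODE M21.

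The deposited counts were tested with edgeR 4.0.16 (R 4.3.3): filterByExpr by group, TMM normalization, and a quasi-likelihood fit over the 12 libraries of the cohort's 4 genotypes, with the contrast Tsc2 KO minus control and Benjamini-Hochberg adjustment over 16631 genes. A gene passed at an adjusted p of 0.05 or lower. A call under the study's thresholds also needed its minimum of 5 FPKM, applied here to the mean of at least 1 of the 2 groups. The difference between cohorts was an interaction in a second fit of 12 libraries. Libraries held 15679205 to 20541625 counted reads, and the p-values rest on the spread between samples as estimated from all libraries of the fit concerned. Intervals from counts cover counting error only. Where a symbol had several identifiers the one with most reads was used, and without strand information reads of overlapping antisense genes cannot be told apart.

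The comparison, its 33 gene lists and the named genes were chosen with earlier results of these data known, so no list was given a test of its own. Lists are described by the number of members that passed and by their median. Named are Tsc2 and 10 genes the study's text names for kidney, the 10 largest increases and 10 largest decreases among called protein-coding genes without overlap between groups, and in each list up to 3 genes a direction by smallest adjusted p (the 2 most abundant where fewer than 2 passed). Other genes given beside them were chosen after their values were seen, for their role in a list. Alternatives were DESeq2 1.42.0, a fit of the 2 groups alone, RLE normalization, no count filter, other FPKM minimums, the replicate number as a block, and leaving out each library. The procedure was tested on simulated data. A few genes that the rule names are not reported here. Promoters came from RefSeq (GRCm38.p6).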

Additional observations from a re-analysis of the deposited data

How the results depend on the processing

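None of the 123 genes that the naming rule gave and that passed changed direction with DESeq2 (122 genes with a value), the 2 groups alone, RLE normalization, the replicate block or 1 library left out; the other genes were not followed. Against 729 increases and 676 decreases, the counts were 1270 and 1033 without the FPKM minimum. When every library of both groups had to reach 5 FPKM, which drops genes that are low in the controls, 411 increases remained. DESeq2 on the 2 groups alone called 1069 increases and 1031 decreases. Leaving out 1 library gave 469 to 571 increases and 355 to 536 decreases, with 2 kidneys left in a group. DESeq2 on all 4 genotypes called 899 and 838, among them 729 and 674 of the genes above. The difference between the cohorts, 0 genes by edgeR, was 424 genes with DESeq2 and 305 without the count filter, and 0 to 87 when 1 library was left out. With the replicate number as a block it was 1 gene, and the block gave 657 increases and 617 decreases in the main comparison. The numbers were not shown to pair the kidneys: deviations of same-numbered samples correlated at -0.14, 0.01 and 0.03, and no sample correlated best with its own number. Of 123 named genes that passed, 115 still did so with the block, 122 with DESeq2 (1 had no adjusted p), 119 with the 2 groups alone and 91 to 103 with 1 library left out. The cause of these changes was not tested. With 3 kidneys a group, genes of few reads such as Igf2, Mlana and the T cell markers are measured with little precision.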

Other observations

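Called protein-coding genes outside the 33 lists whose groups did not overlap were read by smallest adjusted p, after their values had been seen. Dpysl3, a cytoskeletal protein of growing neurons, had the smallest of all genes, at 1.32, 1.58 and 1.75 FPKM in the controls and 17.3, 13.5 and 20.9 FPKM in the Tsc2 KO kidneys (log2 fold change 3.47, SE 0.18, adjusted p = 7.36e-06). Pigz, a mannosyltransferase of GPI anchor synthesis, was read at 0.504, 0.863 and 0.613 FPKM in the controls and 23.7, 19.8 and 22.2 FPKM in the Tsc2 KO kidneys (log2 fold change 5.04, SE 0.39, adjusted p = 6.03e-05). Vat1 gave 17.6, 19.6 and 21.99 FPKM in the controls and 59.3, 61.7 and 57.4 FPKM in the Tsc2 KO kidneys (log2 fold change 1.59, SE 0.11, adjusted p = 3.77e-05), and the secreted galectin ligand Lgals3bp gave 30.9, 30.3 and 28.9 FPKM in the controls and 88.5, 96.5 and 117 FPKM in the Tsc2 KO kidneys (log2 fold change 1.74, SE 0.13, adjusted p = 6.03e-05). Serpinb6a, Emb, Fam221a and Uap1l1 rose with log2 fold changes of 2.49, 1.42, 4.22 and 1.43. The 2 decreases among the leading 12 were the membrane-bound carbonic anhydrase Car4, at 53.6, 63.3 and 70.8 FPKM in the controls and 16.98, 18.6 and 22.7 FPKM in the Tsc2 KO kidneys (log2 fold change -1.69, SE 0.15, adjusted p = 9.52e-05), and the retinol dehydrogenase Rdh16f2, at 364, 254 and 288 FPKM in the controls and 40.5, 55.8 and 73.2 FPKM in the Tsc2 KO kidneys (log2 fold change -2.42, SE 0.21, adjusted p = 1.05e-04). None of the genes named here overlapped between groups, which their choice required, so that separation is no finding for them.

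Gene families were likewise chosen after their values were seen and carry no test of the family. Among 31 tested organic ion transporters of the Slc22 and Slco families, 18 passed downward and 1 upward (median log2 fold change -1.29), the increase being Slco1a1 at 0, 0 and 0.0106 FPKM in the controls and 0.114, 0.111 and 0.232 FPKM in the Tsc2 KO kidneys (log2 fold change 4.90, SE 1.01, adjusted p = 0.00847). Slc22a2, the cation transporter OCT2, was read at 79.3, 84.1 and 86.4 FPKM in the controls and 29.8, 32.04 and 39.8 FPKM in the Tsc2 KO kidneys (log2 fold change -1.30, SE 0.16, adjusted p = 5.94e-04). Slc22a12, the urate exchanger URAT1, was read at 220.0, 268 and 346 FPKM in the controls and 101, 123 and 119.8 FPKM in the Tsc2 KO kidneys (log2 fold change -1.28, SE 0.19, adjusted p = 0.0015). Of 10 carboxylesterases 5 passed downward and none upward (median -1.76), with the smallest adjusted p in Ces1f (log2 fold change -2.50, SE 0.40, adjusted p = 0.00199). Of 36 interferon-induced genes 10 passed upward and none downward (median 0.77), among them Oasl1 at 0.589, 0.519 and 0.726 FPKM in the controls and 3.74, 6.19 and 8.43 FPKM in the Tsc2 KO kidneys (log2 fold change 3.31, SE 0.34, adjusted p = 2.31e-04) and Ifit1 at 2.31, 2.45 and 1.99 FPKM in the controls and 5.79, 11.6 and 11.4 FPKM in the Tsc2 KO kidneys (log2 fold change 2.09, SE 0.27, adjusted p = 6.07e-04). Of 37 kinesins 11 passed upward and none downward (median 0.65), including the mitotic motors Kif11 (log2 fold change 2.73, SE 0.39, adjusted p = 0.00117) and Kif4 (log2 fold change 3.19, SE 0.45, adjusted p = 0.00103). Claudins of the tight junction split, with 5 of 18 passing upward and 2 downward (median -0.22): Cldn4 rose (log2 fold change 1.34, SE 0.30, adjusted p = 0.0121) and Cldn10 fell (log2 fold change -1.10, SE 0.24, adjusted p = 0.0101). Cytoplasmic ribosomal protein genes passed in 1 of 78 cases, downward, with a median of -0.24 and 7 of the 78 above 0. The gene that passed was Rpl24, read at only 0.559, 0.814 and 0.378 FPKM in the controls and 0.159, 0.0570 and 0.0953 FPKM in the Tsc2 KO kidneys (log2 fold change -2.41, SE 0.68, adjusted p = 0.0359).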
